A study of Homo sapiens with 27 samples.

Results

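SK-N-BE(2)c neuroblastoma cells kept in hypoxia with the solvent DMSO for 72 h were compared with cells kept in the same way for 24 h, across all genes that the arrays measured. The comparison rests on 7 of the 27 arrays of the study, 4 at 72 h and 3 at 24 h, each placed in its group by its label. SK-N-BE(2)c is an established human neuroblastoma line with amplified MYCN. The other groups used here were DMSO with 48 h of hypoxia (4 arrays), PP242 with 72 h and with 24 h of hypoxia (4 arrays each), and a control at 0 h (4 arrays) whose label states neither DMSO nor hypoxia. PP242 with 48 h of hypoxia (4 arrays) also entered the model. The spread behind each SE and p-value was estimated from all 27 arrays. PP242 blocks the kinase mTOR in both of its complexes, and the oxygen level and the dose are not given in the sources used here. Replicates carry the numbers 1 to 4 without a statement that they came from separate cultures. The p-values therefore cover only the spread between these samples, which may be technical, and DMSO at 24 h has no array numbered 4. No separate culture kept for 72 h without hypoxia is used here, so time in hypoxia and time in culture cannot be told apart.

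Cells short of oxygen stabilise the HIF transcription factors, which raise genes of glucose uptake, vessel growth and pH control. Prolonged shortage can also engage the integrated stress response, in which phosphorylation of the initiation factor eIF2 lowers general translation and favours ATF4, the activator of DDIT3, ATF5 and PPP1R15A. Entry into S phase depends on E2F factors, which switch on genes for the MCM helicase, DNA polymerases and nucleotide supply, and later cell cycle genes carry a CHR element bound by the DREAM and MuvB complexes. Metallothioneins are small cysteine-rich proteins that bind zinc and copper, and the zinc sensor MTF1 drives them through metal response elements.

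Promoter sequences are shown for genes of the replication, mitosis and stress lists with a small p. Only those that held a searched motif are shown. They are RefSeq sequences of build GRCh38.p14 running from 250 bases before to 50 bases after the annotated start, written in the direction of the gene, with capitals marking the motifs. In MCM7, a subunit of the replicative helicase (chr7:100101348-100101647, minus strand), in CHAF1A and CHAF1B, which load histones behind the fork (chr19:4402390-4402689 and chr21:36385142-36385441, both plus strand), capitals mark E2F-type words. In BUB1B, a kinase of the spindle checkpoint (chr15:40160819-40161118, plus strand), they mark the CHR, and in PPP1R15A, which directs the phosphatase that reverses eIF2 phosphorylation (chr19:48872171-48872470, plus strand), the core of the cAMP response element.
MCM7: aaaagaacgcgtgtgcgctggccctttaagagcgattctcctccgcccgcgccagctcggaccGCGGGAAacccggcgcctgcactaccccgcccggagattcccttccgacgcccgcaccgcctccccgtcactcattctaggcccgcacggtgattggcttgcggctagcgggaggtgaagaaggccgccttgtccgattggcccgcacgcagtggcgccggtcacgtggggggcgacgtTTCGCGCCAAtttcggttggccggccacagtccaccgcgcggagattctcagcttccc
CHAF1A: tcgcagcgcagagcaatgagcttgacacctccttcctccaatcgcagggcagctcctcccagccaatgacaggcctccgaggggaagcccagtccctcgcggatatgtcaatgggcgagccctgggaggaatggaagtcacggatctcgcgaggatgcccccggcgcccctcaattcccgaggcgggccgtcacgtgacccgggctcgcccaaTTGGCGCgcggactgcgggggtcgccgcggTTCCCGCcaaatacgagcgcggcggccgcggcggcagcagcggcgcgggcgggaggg
CHAF1B: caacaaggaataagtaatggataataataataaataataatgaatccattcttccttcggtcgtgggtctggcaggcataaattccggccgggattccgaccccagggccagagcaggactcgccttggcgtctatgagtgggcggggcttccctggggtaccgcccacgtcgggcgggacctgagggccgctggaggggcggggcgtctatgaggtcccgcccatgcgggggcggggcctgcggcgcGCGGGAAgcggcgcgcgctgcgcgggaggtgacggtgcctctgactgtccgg
BUB1B: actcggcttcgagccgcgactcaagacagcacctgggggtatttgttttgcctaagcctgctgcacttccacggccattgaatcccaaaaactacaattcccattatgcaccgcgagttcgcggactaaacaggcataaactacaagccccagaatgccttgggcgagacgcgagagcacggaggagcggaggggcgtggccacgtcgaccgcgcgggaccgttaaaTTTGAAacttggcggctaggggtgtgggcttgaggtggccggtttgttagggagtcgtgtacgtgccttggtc
PPP1R15A: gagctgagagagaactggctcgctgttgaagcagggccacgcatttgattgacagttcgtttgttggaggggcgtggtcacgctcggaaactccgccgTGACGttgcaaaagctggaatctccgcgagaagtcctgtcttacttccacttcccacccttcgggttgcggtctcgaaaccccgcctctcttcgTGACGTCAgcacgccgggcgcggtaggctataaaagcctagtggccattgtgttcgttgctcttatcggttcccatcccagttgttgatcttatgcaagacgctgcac

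Motifs were searched on both strands, and words of different motifs could overlap. The E2F-type words were TTCCCGC as well as TTGGCGC, and TTCGCGC with TTGCCGC. They occurred in 12 of the 19 measured replication licensing genes with a RefSeq promoter (63.2%) and in 19 of 24 replication fork genes (79.2%), against 19.2% of the 9969 tested genes with a promoter and 13.0% of all 35116 promoters. These words of 7 letters were taken up after a first search with a T before each (TTTCCCGC, TTTGGCGC and so on) had been seen. The longer words occurred in 10 of the 19 licensing genes (52.6%) and in 9 of the 24 fork genes (37.5%), against 5.09% of tested genes and 3.31% of all promoters, and of the E2F windows looked at for display only that of MCM7 held any. The CHR words TTTGAA and TTTAAA occurred in 32 of 39 mitosis genes (82.1%), against 17.0% of tested genes and 24.0% of all promoters, and CCAAT occurred in 28 of them (71.8%), against 36.7% and 34.6%. The hypoxia response element cores ACGTG and GCGTG occurred in 23 of 27 hypoxia response genes (85.2%), against 60.4% and 48.4%. For the stress genes, the cAMP response core TGACG occurred in 7 of 21 (33.3%), against 32.8% of tested genes and 24.6% of all promoters. The ATF4 and C/EBP word TGATGNAA occurred in 3 of 21 (14.3%), against 2.07% and 3.62%. The cAMP response core was added after TGATGNAA had been found in none of the 4 stress gene windows looked at for display. The metal response words TGCACNC and TGCGCNC occurred in 4 of 7 metal response genes (57.1%), against 37.4% and 29.6%. These letters are a description of the windows, and binding was not measured. The windows of FEN1, DDIT3, ATF5 and GDF15 were looked at for display too. They held none of the words searched for their group and are not shown.

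On the 7 arrays the deposited median intensity lay between 103 and 111, the background mode between 95.8 and 104, and 21230 to 22631 probes exceeded background. Precision is limited by the number of arrays. Of 10 markers of the neuroblast lineage 7 were measured, all above background on every one of the 7 arrays, with a mean log2 level of 11.14 to 11.32 at 72 h and of 11.02 to 11.15 at 24 h. Of 28 markers of fibroblasts, Schwann, immune, endothelial and blood cells 14 were measured, with a mean log2 level of 5.92 to 6.02 at 72 h and of 5.73 to 5.84 at 24 h. Levels below are normalised log2 intensities of 1 probe per gene and are not comparable between genes. Changes are log2 differences, 72 h over 24 h unless another pair is named, with the moderated standard error (SE) of limma.

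Of the 12664 genes tested 2098 passed a limma adjusted p of 0.05 (16.6%), 989 higher at 72 h (7.81%) and 1109 lower (8.76%). Changes of at least 4-fold were found in 16 of the higher and 13 of the lower genes. With the sample number as a block the count was 3200, of which 1561 were higher. With 1 median per array in place of quantile normalization, 22.8% of the calls were rises, against 47.1% in the fit reported here. Without DMSO 24 h array 2 the count was 1357.

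Genes of DNA replication were lower at 72 h. FEN1, the nuclease that trims Okazaki fragments, had log2 levels of 8.26, 8.16, 8.36 and 8.30 at 72 h, against 10.65, 10.78 and 10.75 at 24 h. Its change of -2.45 (SE 0.30, adjusted p = 1.67e-06) was the largest fall of all tested genes, and the groups did not overlap. PCNA, the sliding clamp of the polymerases, had levels of 9.51, 9.55, 9.31 and 9.19 at 72 h, against 11.57, 11.51 and 11.35 at 24 h, a change of -2.09 (SE 0.42, adjusted p = 0.000788). Second, dimmer probes changed by -1.59 for FEN1 and by -1.08 for PCNA. At the brighter probe all 4 arrays at 72 h lay below all 3 at 24 h for both genes, as the plot of levels by array shows. The largest rises and falls were named only where the groups did not overlap, so the absence of overlap there adds no support.

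Of the 22 measured genes of origin licensing 17 fell (77.3%, against 8.76% of all tested genes) and 0 rose. Their median change was -1.32, beside a median of 0.00 over all tested genes. MCM10, which helps to start unwinding, changed by -2.20 (SE 0.28). The helicase subunits MCM6 (-1.94), MCM3 (-1.27) and MCM7 (-1.05), the helicase partner CDC45 (-1.91) and the GINS subunit GINS2 (-1.91) were lower too. Of 2 dimmer probes of MCM7, 1 changed by -1.33 and 1 by -0.13. MCM6 stood at 8.59, 8.60, 8.89 and 8.81 at 72 h, against 10.57, 10.75 and 10.68 at 24 h.

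Of the 29 measured genes of the replication fork 24 fell (82.8%, against 8.76% of all tested genes) and 0 rose, with a median of -1.12. The polymerase subunits POLE2 (-2.24) and POLA2 (-1.69), CHAF1B (-2.00) and CHAF1A (-1.62) of the histone chaperone CAF-1, and RNASEH2A (-1.40), which removes ribonucleotides, were among them. UHRF1, which passes DNA methylation on to the new strand, changed by -2.12 (SE 0.38), while its second, dim probe changed by -0.43. In nucleotide synthesis 12 of 20 measured genes fell (60%) and 1 rose (5%, against 7.81% of all tested genes), with a median of -0.74. Thymidine kinase TK1 had levels of 6.59, 6.71, 6.80 and 6.95 at 72 h, against 9.21, 9.11 and 8.88 at 24 h, a change of -2.30 (SE 0.29, adjusted p = 3.66e-06). Ribonucleotide reductase RRM2 (-2.02), thymidylate synthase TYMS (-1.68) and the nucleotide-cleaving DCTPP1 (-1.46) also fell. The riser was IMPDH2 (0.64, adjusted p = 0.00573), the guanine nucleotide enzyme, named after its value was seen. Its adjusted p was 0.0525 without DMSO 24 h array 2 and 0.0631 with 1 median per array.

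**Figure D1:**
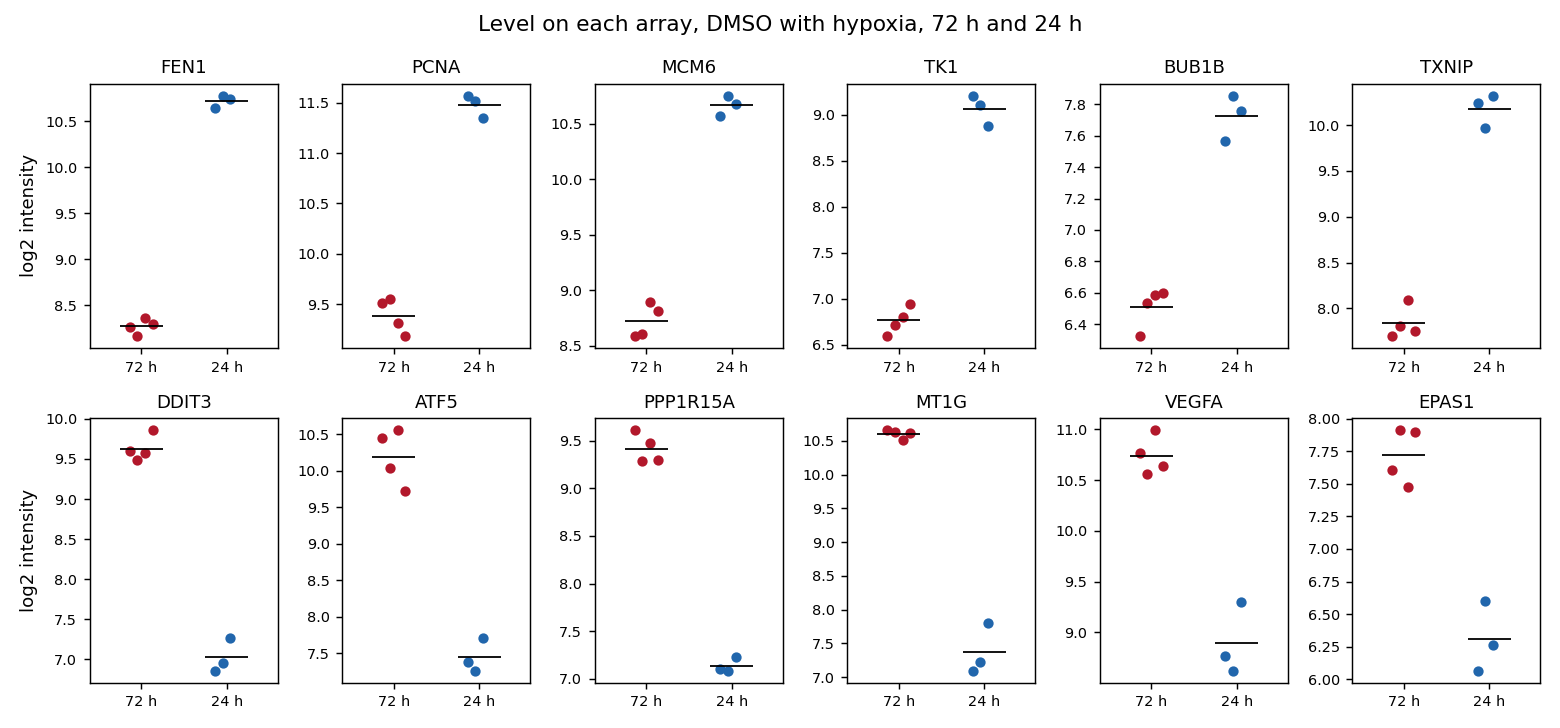
Normalised log2 intensity (vertical axes, different ranges) of 12 genes on the 4 arrays at 72 h (red, left) and the 3 arrays at 24 h (blue, right), with lines at the means. FEN1 lies between 8.16 and 8.36 at 72 h and between 10.65 and 10.78 at 24 h, and in no panel do the groups overlap. Absence of overlap was a condition for naming the largest rises and falls, so for those genes it is no separate result.

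Among regulators of the step into S phase 12 of 25 measured genes fell (48%) and 2 rose (8%), with a median of -0.52. Over all tested genes 8.76% fell and 7.81% rose, so the rises lay near that share. The activator E2F2 (-2.04), the kinase CDK2 (-1.75), its activating phosphatase CDC25A (-1.93), cyclin CCND3 (-1.59) and E2F7 (-1.58), a repressor of the E2F family, were lower. Second, dim probes changed by -0.72 for CDK2 and by -1.09 for CDC25A. The 2 that rose, CDKN1B, the inhibitor p27 (0.58, adjusted p = 0.00605), and the E2F partner TFDP2 (0.54, adjusted p = 0.0139), were named after their values were seen. With 1 median per array CDKN1B had an adjusted p of 0.282 and TFDP2 of 0.0670, and for TFDP2 it was 0.104 when DMSO 24 h array 2 was left out.

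Genes of mitosis fell as well. Of 49 measured members 40 fell (81.6%, against 8.76% of all tested genes) and 0 rose, with a median of -1.06. BUB1B had levels of 6.33, 6.54, 6.59 and 6.60 at 72 h, against 7.57, 7.85 and 7.76 at 24 h, a change of -1.21 (SE 0.17, adjusted p = 1.17e-05). The kinetochore genes CENPM (-1.52) and SPC25 (-1.59), the survivin gene BIRC5 (-1.67), the centriole kinase PLK4 (-1.34) and the kinase MELK (-2.01) were lower on every array at 72 h than on any at 24 h. For MELK, among the largest falls, this was part of the naming rule. The proliferation marker MKI67 changed by -1.11 (adjusted p = 0.00250) and was above background on 1 of 4 arrays at 72 h and on 3 of 3 at 24 h. Of 21 measured genes of DNA repair 14 fell (66.7%) and 0 rose, with a median of -1.02. Among the falls were the Fanconi anaemia genes UBE2T (-2.10), FANCI (-1.58) and FANCG (-1.41) and the uracil glycosylase UNG (-1.70). Other, dim probes of UNG changed by -0.26 and by -0.62. DDIAS, a suppressor of apoptosis after DNA damage, changed by -2.08. In a bulk culture, fewer cycling cells and less RNA of these genes per cell cannot be told apart.

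**Figure D2:**
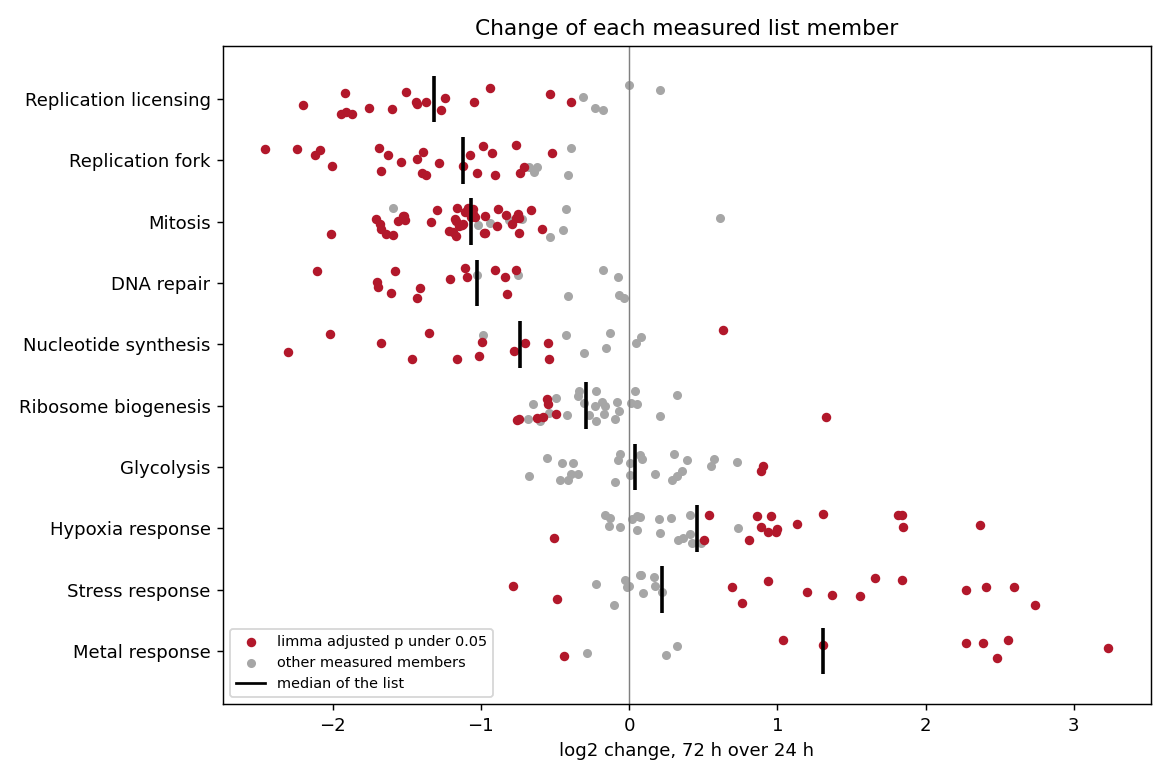
Log2 change, 72 h over 24 h (horizontal axis), of each measured member of 10 gene lists, red where the limma adjusted p was under 0.05 and grey otherwise, with the list's median as a bar. The medians run from -1.32 for replication licensing to 1.31 for the metal response.

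The 48 h arrays divide the interval. From 24 to 48 h 513 genes passed (4.05%) and from 48 to 72 h 288 passed (2.27%), with 57.1% and 35.1% of the calls rises, against 27.9% and 17.9% with 1 median per array. Since both steps use the 48 h arrays their values are given side by side. Falls were 1.74% of all tested genes in the first step and 1.48% in the second, and rises 2.31% and 0.798%. In origin licensing 8 genes fell in the first step (median -0.67) and 10 in the second (-0.68). In mitosis 1 fell in the first step (median -0.23) and 29 in the second (-0.83). BUB1B changed by -0.33 (adjusted p = 0.34) and then by -0.89 (adjusted p = 0.0039), and FEN1 by -1.40 and then by -1.05. In the hypoxia response 13 genes rose in the first step (median 0.53) and 1 in the second (-0.03), and in the metal response 5 rose in the first step (0.68) and 0 in the second (0.36). DDIT3 changed by 2.42 and then by 0.17, and NDRG1, a hypoxia-responsive gene, by 1.78 and then by 0.07. The count of the first step was 134 or 156 when DMSO 24 h array 1 or 2 was left out, and 215 or 190 when DMSO 48 h array 1 or 3 was. The count of the second step was 121 or 127 when DMSO 48 h array 2 or 4 was left out, and 102, 119 or 133 when DMSO 72 h array 1, 2 or 3 was. Blocking on the sample number, 1272 genes passed in the first step and 901 in the second.

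**Figure D3:**
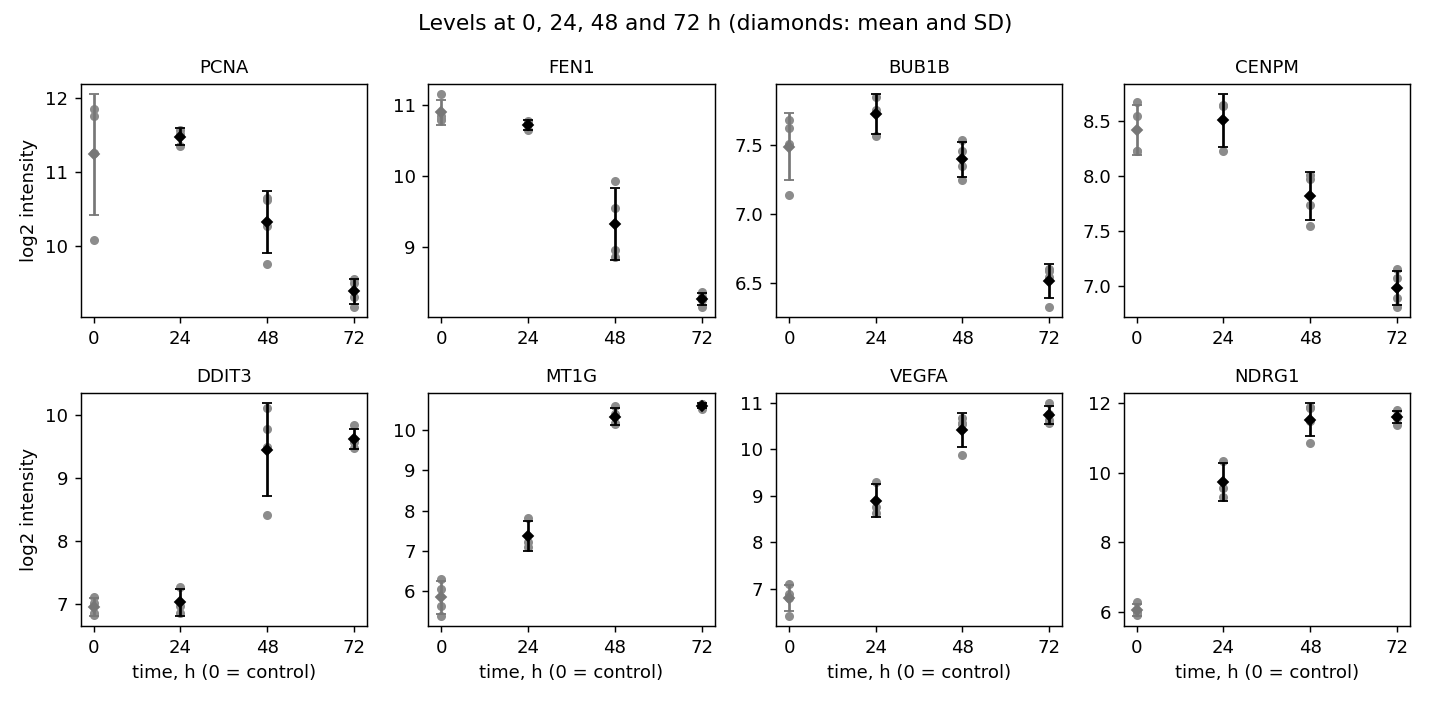
Normalised log2 intensity (vertical axes, different ranges) of 8 genes at 0 h (control, grey diamonds) and after 24, 48 and 72 h of hypoxia in DMSO (black diamonds), with each array as a dot and the SD as bars. BUB1B averaged 7.49, 7.73, 7.40 and 6.51 at the 4 times, and DDIT3 6.95, 7.03, 9.45 and 9.63.

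Of the 25 measured genes of the integrated stress response 12 rose at 72 h (48.0%, against 7.81% of all tested genes). In that list 2 fell (8%, near the 8.76% of all tested genes) and 11 did not pass, with a median of 0.22. DDIT3, which encodes the transcription factor CHOP, had levels of 9.60, 9.48, 9.57 and 9.85 at 72 h, against 6.86, 6.96 and 7.27 at 24 h, a change of 2.60 (SE 0.26, adjusted p = 1.57e-07). ATF5, a transcription factor whose translation is favoured in this response, had levels of 10.45, 10.04, 10.55 and 9.72, against 7.38, 7.26 and 7.71 at 24 h, a change of 2.74 (SE 0.31). PPP1R15A had levels of 9.61, 9.28, 9.47 and 9.29 at 72 h, against 7.10, 7.08 and 7.23 at 24 h, a change of 2.28 (SE 0.22). For these 3 genes every array at 72 h lay above every array at 24 h. Absence of overlap was a condition for naming the largest rises, these genes among them, so it adds no support.

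GDF15, a secreted stress signal, was above background on 0 of 3 arrays at 24 h and on 4 of 4 at 72 h. It was at least 4.40-fold higher at 72 h (adjusted p = 9.00e-07). The bound sets the mean at 72 h against the lowest level above background on the 24 h arrays, and holds for the background correction used here. The log2 change of GDF15 was 2.40 in that fit, 1.64 with an offset of 50, and 1.27 with the authors' value table or without background correction, and as folds these 3 alternatives lie below the bound. The death receptor TNFRSF10B (1.56), the transcription factor CEBPB (1.20), VEGFA (1.84), the vessel growth factor that is also in the hypoxia list, and DDIT4 (0.94, adjusted p = 0.00756), an inhibitor of mTOR complex 1, rose. TNFRSF10B had a second, dim probe with a change of 0.19. For DDIT4 the adjusted p was 0.0542 when DMSO 24 h array 1 was left out and 0.0691 with 1 median per array. The 2 that fell were EIF4EBP1 (-0.49), a brake on translation, and the transcription factor ATF3 (-0.78), both named after their values were seen. ATF3 did not pass without DMSO 24 h array 1 (adjusted p = 0.0752), DMSO 24 h array 2 (0.106) or DMSO 72 h array 3 (0.0556).

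Other genes that rose most belong to no list here or to others. ZNF467, a zinc finger protein, had levels of 9.45, 9.54, 9.58 and 9.52 at 72 h, against 6.05, 6.31 and 6.20 at 24 h. Its change of 3.34 (SE 0.16, adjusted p = 5.71e-14) was the largest rise of all tested genes. CREBRF, a regulator of the transcription factor CREB3, changed by 2.32 (SE 0.22), AMHR2, a receptor of the TGF-beta family, by 2.18, and NPAS4, a transcription factor of active neurons, by 2.99. NPAS4 was above background on 1 of 3 arrays at 24 h.

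Metallothionein genes were higher at 72 h. MT1G had levels of 10.66, 10.64, 10.52 and 10.61 at 72 h, against 7.09, 7.22 and 7.80 at 24 h, a change of 3.23 (SE 0.40, adjusted p = 2.37e-06). Array 3 was the highest at 24 h. MT1E (2.56), MT1F (2.48), MT1H (2.39) and MT1X (2.27) rose with it, and MT1M was at least 1.50-fold higher (adjusted p = 0.00345), with 0 of 3 arrays above background at 24 h. That bound too rests on the background correction, since the log2 change of MT1M was 1.04 here and 0.39 with the authors' value table or without correction. The coding sequences of this family are near copies, so signal of one member can reach the probe of another, and the values are uncertain as to the single gene. A second, dim probe of MT1E changed by 0.34. SLC30A1, the zinc exporter of the cell surface, rose by 1.31 (SE 0.27). Of 11 measured genes of the list 7 rose (63.6%) and 1 fell (9.09%), with a median of 1.31. The shares over all tested genes were 7.81% for rises and 8.76% for falls. The one that fell, the zinc transporter SLC30A5 (-0.44, adjusted p = 0.0394), lost its call without any 1 of the 7 arrays, with adjusted p between 0.0557 and 0.167, and was named after its value was seen.

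Of 34 measured hypoxia response genes outside glycolysis 15 rose (44.1%) and 1 fell (2.94%), with a median of 0.46. The shares over all tested genes were 7.81% for rises and 8.76% for falls. VEGFA had levels of 10.76, 10.56, 10.99 and 10.64 at 72 h, against 8.77, 8.62 and 9.30 at 24 h, a change of 1.84 (SE 0.23, adjusted p = 2.24e-06). The lowest array at 72 h was above the highest at 24 h. NDRG1 (1.85), the ephrin EFNA1 (1.81), the collagen hydroxylase PLOD1 (1.13), the clock repressor BHLHE40 (0.99), the nuclear receptor RORA (0.96) and COXFA4L2, a mitochondrial protein induced by HIF (2.37), rose too. A second probe of EFNA1 changed by 0.31. The 1 that fell was the lipid droplet protein HILPDA (-0.51, adjusted p = 0.0324), named after its value was seen. Its call was lost without DMSO 24 h array 1, 2 or 3 or without DMSO 72 h array 3 or 4, with adjusted p between 0.0624 and 0.103. With 1 median per array 9 genes of the list rose and the median was 0.25.

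Of 26 measured glycolysis genes 2 rose (7.69%, near the 7.81% of all tested genes) and 0 fell, with a median of 0.04. The risers were the glucose transporter SLC2A1 (0.89, adjusted p = 0.00159) and hexokinase HK2 (0.90, adjusted p = 0.00160), and SLC2A1 had an adjusted p of 0.0532 with 1 median per array. A second probe of HK2 changed by 0.49. With the sample number as a block 7 genes of the list rose and 2 fell. Among HIF subunits EPAS1, which encodes HIF-2 alpha, had levels of 7.61, 7.91, 7.47 and 7.90 at 72 h, against 6.06, 6.60 and 6.26 at 24 h, a change of 1.41 (SE 0.30, adjusted p = 0.00128). HIF1A had levels of 8.34, 8.43, 8.54 and 8.71 at 72 h, against 8.75, 8.87 and 8.62 at 24 h, and the groups overlapped. Its change of -0.24 (SE 0.23, adjusted p = 0.546) did not pass. The shared partner ARNT changed by 0.25 (adjusted p = 0.273).

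TXNIP, which binds thioredoxin and curbs glucose uptake, had levels of 7.70, 7.81, 8.09 and 7.75 at 72 h, against 10.24, 9.97 and 10.32 at 24 h. It changed by -2.34 (SE 0.23, adjusted p = 1.07e-07), and its relative ARRDC4 by -1.02 (adjusted p = 0.000123). Of 18 measured genes of glucose sensing and redox control 6 fell (33.3%) and 1 rose (5.56%), with a median of -0.39. Over all tested genes 8.76% fell and 7.81% rose. The peroxiredoxin PRDX1 (-0.69) was among the falls, and the 1 riser was HMOX1 (1.27, adjusted p = 0.00612), the haem-degrading enzyme. In cholesterol synthesis 6 of 16 measured genes fell (37.5%) and 1 rose (6.25%), with a median of -0.38. The early enzyme HMGCS1 (-0.94) and the late enzyme EBP (-0.84) were among the falls. The falls were 2 without DMSO 24 h array 1 or 2 and 3 without DMSO 72 h array 3 or 4. The riser was the sterol reductase TM7SF2 (0.83). ACAT2, a cytosolic thiolase (-1.50), and the acyl-CoA ligase ACSL1 (-0.78) were among 4 of 17 measured fatty acid genes that fell (23.5%), and 1 rose (5.88%). A second, dim probe of ACAT2 changed by -0.52. The fatty acid falls were 2 without any 1 of the arrays other than DMSO 72 h array 4.

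For the lists of this paragraph the shares over all tested genes were 7.81% for rises and 8.76% for falls. Some lists lay near these shares and others did not. Of 32 measured genes of ribosome biogenesis 7 fell (21.9%) and 1 rose, with a median of -0.29, and the 2 with the smallest p among the falls were MRTO4 (-0.74) and PA2G4 (-0.58), both nucleolar proteins. NOB1, a nuclease that finishes the small subunit RNA, rose by 1.33 (SE 0.22). With 1 median per array 19 genes of ribosome biogenesis fell, with a median of -0.52, and with the block 13 fell and 2 rose, while 3 or 4 fell without DMSO 24 h array 1 or 2 or DMSO 72 h array 3. Of 45 measured cytosolic ribosomal protein genes 5 rose (11.1%) and 2 fell (4.44%), with a median of 0.08, and RPL37 (1.60) and RPL28 (1.36) led the rises. With the block 11 ribosomal protein genes rose. Ribosomal protein genes have many processed copies in the genome, and a second, dim probe of RPL37 changed by -0.00. Of 18 measured aminoacyl-tRNA synthetase genes 4 rose (22.2%) and 0 fell, with a median of 0.11, led by SARS1 (0.68) and AARS1 (0.51). With 1 median per array that median was -0.10, 0 of the list rose and 5 fell, and the adjusted p of the 4 lay between 0.0881 for SARS1 and 0.384 for LARS1. Without DMSO 24 h array 2 the rises were 2. In amino acid supply 4 of 21 measured genes fell (19%), among them the folate enzyme MTHFD1 (-0.82), the glutamine transporter SLC1A5 (-0.70) and the proline enzyme ALDH18A1 (-0.50). In that list 1 rose (4.76%), the amino acid transporter SLC38A2 (1.00). Of 41 measured genes of oxidative phosphorylation 3 fell (7.32%) and 1 rose (2.44%), COX4I2 (0.85), the subunit isoform known from hypoxia, with a median of -0.17. The falls in oxidative phosphorylation were 0 without DMSO 24 h array 1 or 2, and 7 with the block, which also gave 3 rises, or with 1 median per array. The chaperone HSP90AA1 fell by 0.72. Of 20 measured chaperone genes 2 rose and 2 fell (10% each), and of 22 genes of the unfolded protein response 2 rose and 2 fell (9.09% each). Of 25 genes of p53 and apoptosis 5 rose and 5 fell (20% each), and of 37 genes of lysosome and autophagy 4 rose (10.8%) and 3 fell (8.11%). Of 26 immediate early genes 4 rose (15.4%), of 13 vessel growth factors 3 rose (23.1%), and neither list had a fall. Scaling to 1 median per array left 0 rises among chaperone and unfolded protein genes, with 5 and 4 falls, left 2 rises each in the p53 and lysosome lists, and gave 1 fall among vessel growth factors. The block gave 4 rises each in the chaperone and unfolded protein lists and 5 among vessel growth factors. No chaperone rise was left without DMSO 24 h array 2 or DMSO 72 h array 1 or 3, and no fall in the unfolded protein list without DMSO 24 h array 1 or 2 or DMSO 72 h array 1, 3 or 4. In the p53 list 2 rises and 2 falls were left without DMSO 24 h array 1 or 2.

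Of 23 measured genes that mark the sympathoadrenal origin of the line 5 rose (21.7%), 2 fell (8.70%, near the 8.76% of all tested genes) and 16 did not pass, with a median of 0.15. MYCN, the amplified oncogene, had levels of 13.95, 14.19, 13.94 and 13.97 at 72 h, against 14.46, 14.31 and 14.30 at 24 h. The change of MYCN, -0.35 (SE 0.18, adjusted p = 0.229), did not pass. The arrays at 72 h were all below those at 24 h. How many of all tested genes lack overlap is not given here, so that adds no support for a fall. The secretory chaperone SCG5 (1.01) and the vesicular amine transporter SLC18A1 (0.84) rose, and the secreted peptide precursor VGF (-1.14) and the transcription factor HAND1 (-0.60) fell. GATA3 rose by 0.64 (adjusted p = 0.00753) and had an adjusted p of 0.239 with 1 median per array. Of 30 measured neuronal structure genes 4 rose (13.3%) and 6 fell (20%), against 7.81% and 8.76% of all tested genes. Among them were the tubulins TUBB4B (-1.49) and TUBA1A (-0.75), the receptor RET (-0.98), the neurofilament NEFM (-0.70) and the microtubule protein DCX (0.67). With the block 8 neuronal structure genes rose and 4 genes of the sympathoadrenal list fell.

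Of 24 measured mesenchymal and neural crest genes 3 rose (12.5%) and 1 fell (4.17%), with a median of 0.10. Over all tested genes 7.81% rose and 8.76% fell. The collagen COL5A1 (0.96) and the focal adhesion protein TGFB1I1 (1.20) were among the rises, and a second, dim probe of TGFB1I1 changed by -0.11. With the block 6 genes of that list rose. Of the 14 measured markers of other cells 2 rose and 2 fell (14.3% each), with a median of 0.05. PDGFRB, a receptor of mural cells and fibroblasts, rose by 1.36 (SE 0.19), and the smooth muscle actin ACTA2 by 1.88 (SE 0.29). The proteoglycan LUM (-1.01, adjusted p = 0.0188) and the monocyte marker CD14 (-0.48, adjusted p = 0.0455) fell. LUM lost its call without DMSO 24 h array 1 or 2 or DMSO 72 h array 1 (adjusted p between 0.0536 and 0.0967), and CD14 without DMSO 24 h array 1 or 2 or DMSO 72 h array 2, 3 or 4 (between 0.0683 and 0.241). The part of other cells in the results was not tested.

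Genes of insulin signalling and its FOXO feedback moved as 6 rises (24%) and 1 fall (4%) among 25 measured, with a median of 0.18. Over all tested genes 7.81% rose and 8.76% fell. IGFBP5, a binding protein of insulin-like growth factors (1.50), IGF2, one of those factors (1.28), the glucocorticoid-induced TSC22D3 (1.08) and the stress sensor SESN3 (0.77) rose. The kinase SGK1 had levels of 8.37, 8.36, 8.12 and 8.10 at 72 h, against 9.73, 9.78 and 9.65 at 24 h, a change of -1.48 (SE 0.29, adjusted p = 0.000577). Other probes of TSC22D3 changed by 0.81 and, where not above background on any of the 7 arrays, by 0.07.

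The change with time in DMSO was set against the change over the same interval in PP242, with no array in common, by the difference of both changes in the same model. The difference passed in 1920 genes (15.2%), and in 964 of them the change was more positive in DMSO. Blocking on the sample number gave 3131 genes, and 1 median per array gave 1853, of which 590 were more positive in DMSO. In mitosis 40 of 49 genes fell with time in DMSO (median -1.06), whereas 38 rose in PP242 (median 1.07), where 5.9% of all tested genes passed, 3.07% higher and 2.83% lower. The difference passed in 47 of the 49, all with the more negative change in DMSO, against 7.55% of all tested genes. The courses started from different levels. The median log2 level of the mitosis list was 9.04 in DMSO and 6.73 in PP242 at 24 h. At 72 h it was 7.59 in DMSO and 7.99 in PP242. In origin licensing the median changes were -1.32 in DMSO and 0.49 in PP242, and 15 of 22 differences passed. Its median level at 24 h was 9.16 in DMSO and 7.82 in PP242. FEN1 changed by -2.45 in DMSO and by 1.44 in PP242 (adjusted p of the difference = 2.5e-07), and PCNA by -2.09 and by 1.51 (5.0e-05). For the stress genes DDIT3 changed by 2.60 in DMSO and by -1.21 in PP242 (8.2e-08), and ATF5 by 2.74 and by -0.91 (7.9e-07). In the metal response the medians were 1.31 in DMSO and -0.12 in PP242, and the difference passed in 8 of 11 genes. In the hypoxia response they were 0.46 and 0.03, and VEGFA changed by 1.84 and by 0.27 (0.00063). The difference did not pass for TNFRSF10B, which rose by 1.56 in DMSO and by 1.14 in PP242 (adjusted p = 0.16), or for RET, which fell by 0.98 and by 0.82 (0.66). Across the 12664 genes the changes in DMSO and PP242 had a Pearson r of -0.30 and a Spearman rho of -0.19, a description over genes, which are not independent replicates.

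**Figure D4:**
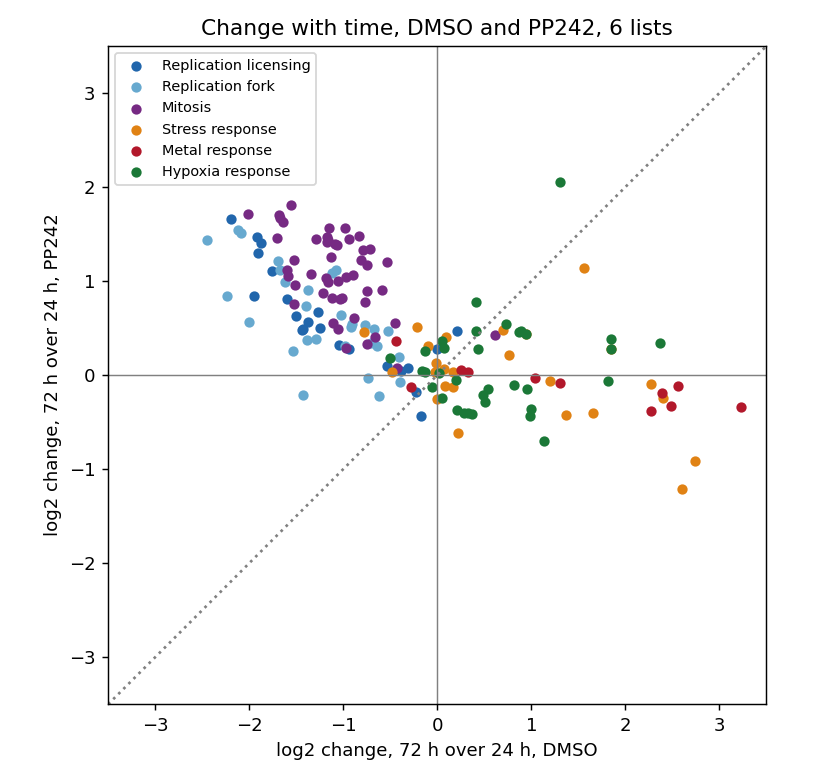
Log2 change, 72 h over 24 h, in DMSO (horizontal axis) and in PP242 (vertical axis) for each measured member of 6 lists, with a dotted line where both are equal. FEN1 lies at -2.45 and 1.44, and MT1G at 3.23 and -0.33.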

How the data were processed

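Biotin-labelled RNA was hybridised to Illumina bead arrays, per the labels' protocols. The deposited table holds 1 intensity per probe and array for 48107 probes, not normalised by the authors and without detection p-values. A second deposited table, of intensity values of 27367 probes quantile normalised by the authors (its columns hold the same sorted values), served as an alternative.

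Signals were corrected by normexp (offset 16), taken to log2 and quantile normalised with limma 3.58.1 in R 4.3.3. Probes above each array's background mode (p of 0.05, at least 3 arrays, density bandwidth 1.5) were kept, 31318 in all, and each gene took its brightest. A model over 7 groups with empirical Bayes moderation was adjusted by Benjamini-Hochberg over 12664 genes at 0.05. It was tested on simulated data. Of the annotated probes 23495 had 1 symbol, 1 had several and 3871 had none, and 23471 matched the RefSeq gene table.

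The comparison, the 30 lists and the named genes were chosen with earlier results of these data known. The rule named the 14 largest rises and falls that passed without overlap of the groups, up to 6 members of each list by smallest p, the 8 largest differences from PP242 each way, and MYCN, MYC, HIF1A, EPAS1, ARNT, VEGFA, DDIT4, CDKN1A, MKI67 and TXNIP. That rule gave 193 genes, and the text gives a selection made after it was seen which calls held under the alternatives, preferring those that did, plus 8 genes outside the rule (IMPDH2, CDKN1B, TFDP2, ATF3, EIF4EBP1, MT1M, SLC30A5 and HILPDA) named after their values were seen. The shorter E2F words and the cAMP response core were chosen after a first motif search was seen. MYC was near background and CDKN1A was not among the tested genes. Promoters shown are among those of the smallest p in 5 lists, with BUB1B added after its values were seen. Windows without a searched word were left out, so the display was chosen by the motifs it shows. Same-number arrays at 72 and 24 h had residual correlations of 0.192, 0.136 and 0.219, all above 0.1. Arrays of different number had -0.222 to 0.203, with 2 of 9 above 0.1. The signs followed a split of numbers 1 and 2 from numbers 3 and 4. Pairs within a side were all positive, 0.0540 to 0.219, and pairs across it all negative, -0.222 to -0.0395. With no array 4 at 24 h, that split is uneven between the times. The labels do not say what a number marks. The model reported has no block on it, and values with the block are given beside the results they change. Alternatives changed the normalisation, value table, offset (50), background correction, filter, choice of probe, groups in the fit, moderation and block, or left out each array. Figures were drawn with matplotlib 3.10.9 in Python 3.11.15.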

Additional observations from a re-analysis of the deposited data

Results flagged for a closer look

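On the 4 arrays at 72 h, 13 of the 201 genes followed had 1 array far from the others by Dixon's criterion, which chance meets in about 1 in 20 groups. MYCN stood at 14.19 on array 2, against 13.94 to 13.97 on the other arrays. GATA3 stood at 9.14 on array 4, against 9.51 to 9.52, and UNG at 9.31 on array 4, against 9.12 to 9.14. TFDP2 was at 6.63 on array 4 (others 6.86 to 6.91), BHLHE40 at 9.27 on array 3 (9.12 to 9.13), MTHFD1 at 6.63 on array 3 (6.85 to 6.88) and RNASEH2A at 7.11 on array 2 (7.26 to 7.28). HJURP was at 7.54 on array 4 (7.02 to 7.05), MARS1 at 9.48 on array 4 (9.23 to 9.26), PSPH at 7.36 on array 2 (6.97 to 7.02), EFNB2 at 8.93 on array 2 (9.24 to 9.27), DNAJB11 at 11.13 on array 2 (both bounds 11.08) and ULK1 at 9.13 on array 3 (8.99 to 9.01).

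The change from 24 to 72 h differed between DMSO and PP242, by limma's test of the difference with an adjusted p under 0.05, in 16 genes singled out for its size. The difference, DMSO minus PP242, was 3.97 for ZNF467, 3.81 for DDIT3, 3.65 for ATF5, 3.57 for MT1G, 3.04 for the linker histone H1-2, 2.81 for MT1F, 2.74 for CREBRF and 2.68 for MT1E. It was -3.89 for FEN1, -3.85 for MCM10, -3.84 for E2F2, -3.73 for MELK, -3.71 for UBE2T, -3.66 for UHRF1, -3.60 for PCNA and -3.38 for CDC45. In each of these genes the change in DMSO and the change in PP242 had opposite signs. The courses need not start from equal levels. H1-2 stood at 8.43 in DMSO and at 10.27 in PP242 at 24 h.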

How the results depend on the processing

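The count of 2098 genes for 72 h against 24 h lay between 1924 and 2831 in the alternatives other than the sample block, and between 1357 and 1843 when 1 of the 7 arrays was left out. With the replicate block, the sample number in the model, the counts were 3200 for 72 h against 24 h, 1272 for 48 h against 24 h, 901 for 72 h against 48 h and 3131 for the difference from PP242, and the median of the stress list was 0.41. All 2098 genes remained called with the block, and of the 201 genes followed here it ended the call of 0 and added that of 14. Leaving out 1 array gave 134 to 625 genes for 48 h against 24 h, 102 to 335 for 72 h against 48 h and 1462 to 2000 for the difference. It gave 3 to 7 falls in the ribosome biogenesis list, 1 to 2 falls in the stress list, 0 to 1 in the hypoxia list and 0 in the metal list.

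With 1 median per array the medians were -1.50 for replication licensing, -1.41 for the replication fork, -1.27 for mitosis, 1.16 for the metal response and 0.25 for the hypoxia response, with 2 falls in the metal list and 9 rises in the hypoxia list. The median of the tRNA synthetase list became -0.10, and the median of all genes was -0.0865. With the authors' value table the medians were -1.05, -0.89 and -0.79 for licensing, fork and mitosis, 0.36 for stress and 0.90 for metal. Without background correction they were -1.07, -0.92, -0.81 and, for metal, 0.89. An offset of 50 gave -1.20 for licensing and 1.06 for metal. The metal median was 1.79 with a stricter filter on dim probes and 1.45 with the mean of probes, and without a filter 0 metal genes fell. With only the compared groups in the fit 1 mitosis gene rose and 12 ribosome biogenesis genes fell, a list with 19 falls and a median of -0.52 with 1 median per array and with 13 falls and 2 rises with the block. The cause of these moves was not tested.

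The genes followed are the 193 of the naming rule and 8 further genes of the text. Of these 201 genes, 132 kept their direction and their side of the threshold, and 0 reversed. That holds for the 10 alternatives and the 7 fits that left out an array, as far as they held the gene. The stricter filter on dim probes held 193 of the 201, and genes it dropped were counted as unchanged there. The call changed for 47 when an array was left out, with 36 calls lost without DMSO 24 h array 2 and 34 without array 1, and for 52 in another alternative, with 21 lost with 1 median per array. The genes described in the text, 117 of the 201, were selected after these outcomes were seen. Of them 104 kept their call in every fit that held them, so that share is not independent of the choice. The value table and the fit without background correction each moved the change of 33 called genes by over 1.5 times, among them GDF15 (1.27), NPAS4 (1.78), MT1H (1.47), CREBRF (1.39) and CHAF1B (-1.27) with the value table. Signal near background limits the size of a change for dim genes, and 42 called genes were above background on 0 arrays at 24 h and 32 on 0 arrays at 72 h.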

Other observations

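Histone genes, chosen for this paragraph after their values were seen, did not share the direction of the replication lists as a group. Of 46 measured genes of linker and core histones 10 rose and 1 fell at 72 h against 24 h, with a median of 0.04. Over all tested genes 7.81% rose and 8.76% fell. Many of the histone probes lay near background, so a median near 0 says little of those genes. H2AC13 was above background on 1 array at 24 h and 0 at 72 h, and H1-4 on 2 and 0. H1-2, a linker histone, rose by 2.08 (SE 0.17, limma adjusted p = 6.87e-09), with levels of 10.40, 10.68, 10.42 and 10.55 at 72 h, against 8.42, 8.30 and 8.58 at 24 h. H3C4 was at least 3.20-fold higher, with 0 of 3 arrays above background at 24 h, under the background correction used here. H2AC6 (1.74), H2BC5 (1.69), H2AC18 (1.19) and H4C8 (1.08) rose too, and the 1 fall was H4C3 (-0.70). Histone genes of 1 cluster are near copies, so signal of one member can reach the probe of another. In PP242 over the same interval H1-2 changed by -0.96 and H3C4 by -0.16. The courses started from different levels. At 24 h H1-2 stood at 10.27 in PP242, against 8.43 in DMSO, and H3C4 at 6.01, against 5.02.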
